A study of Mus musculus with 20 samples.

Results

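The genes described here are 39 markers of Kupffer cells, other liver macrophages and antigen-presenting cells. They were listed by name and sorted by known role into 5 groups: 10 markers of resident Kupffer cells, 17 general macrophage and myeloid genes, 3 of recruited monocytes, 5 of MHC class II presentation and 4 of lipid-associated macrophages. Of the 39, 38 had a probe set that the array annotation gives to that gene alone, and *Spp1* did not. Where a gene had several, the probe set with the highest mean was used. A filter on low values, at the median of all probe sets (6.505 on the deposited log2 scale), left 35 of them among 11728 genes tested. *Spic*, *Itgam* and *Ciita* fell below it.

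Liver RNA came from 20 male C57BL/6J mice, an inbred strain, each on its own array. The MSXH mice (n = 10) ate feed with 45 kcal% fat and 0.05% of what the labels call maple syrup extract high, and the HFD mice (n = 10) ate the 45 kcal% fat feed alone. Both diets lasted 4 weeks, and all mice were 8 weeks old and fasted for 16 h before the livers were taken on day 30. No low-fat group was analysed here, so all mice compared shared the high-fat feed.

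Kupffer cells are the macrophages that live in the liver sinusoids, where they take up particles, lipids and aged cells from the blood. They carry the scavenger receptor *Marco*, the complement receptor *Vsig4* and the lectin *Clec4f*, and depend on the growth factor receptor *Csf1r*. Monocytes that enter the liver carry *Ccr2* and can become macrophages there. MHC class II molecules are pairs of an alpha and a beta chain that show peptides to helper T cells. Kupffer cells, dendritic cells and B cells make them under the control of the transactivator CIITA, which acts through conserved boxes in the promoters.

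The promoters of *H2-Aa* and *H2-Eb1*, which encode an alpha and a beta chain, are shown because the class II genes had the highest r of the gene pairs examined below. The sequences are from RefSeq on GRCm38.p6, cover 250 bases before to 50 bases after the annotated transcript start, and are written along the gene's strand. *H2-Aa* lies on the minus strand (chr17:34287774-34288073) and *H2-Eb1* on the plus strand (chr17:34305617-34305916). Capitals mark the letters GCAACT of the X box and TGATTGG of the Y box, which were searched on both strands and do not overlap each other.
H2-Aa: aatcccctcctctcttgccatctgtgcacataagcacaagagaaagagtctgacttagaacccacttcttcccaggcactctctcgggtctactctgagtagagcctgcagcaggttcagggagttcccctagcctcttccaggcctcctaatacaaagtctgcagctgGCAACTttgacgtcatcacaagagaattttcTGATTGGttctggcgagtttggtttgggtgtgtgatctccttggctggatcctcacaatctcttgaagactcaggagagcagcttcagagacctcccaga
H2-Eb1: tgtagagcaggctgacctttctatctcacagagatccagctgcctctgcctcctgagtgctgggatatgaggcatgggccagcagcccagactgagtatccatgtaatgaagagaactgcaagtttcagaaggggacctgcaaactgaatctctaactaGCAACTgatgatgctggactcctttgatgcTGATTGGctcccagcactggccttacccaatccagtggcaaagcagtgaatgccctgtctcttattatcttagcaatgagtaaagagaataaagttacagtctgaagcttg

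In *H2-Aa* the X box began 81 bases and the Y box 50 bases before the start, 31 bases apart. In *H2-Eb1* they began 91 and 61 bases before it, 30 bases apart. Over all 32851 promoters in the table, 10.9% held the X box letters, 7.82% the Y box letters and 0.889% both. Among 36 promoters of 32 listed genes, which do not include *H2-Ab1*, these were the only 2 with both. The letters GAGGAAG, a site of the myeloid factor PU.1, were in 12 of the 36 member promoters and in 13.6% of all promoters. Such matches describe these windows only.

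The deposited values differ very little between arrays. Over all probe sets the median SD between the 20 mice was 9.34e-06 on the log2 scale, far below what livers of different mice give, so the differences are compressed and are not fold changes. A gene's level in a mouse is therefore given in SD from its mean over the 20 mice, and the diet difference as Hedges' g, MSXH minus HFD in units of the SD within groups, with its 95% interval. The limma p-values weigh the difference of group means against the spread between the mice of each group, an estimate that draws on all genes.

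Of the 10 resident Kupffer cell markers, 9 were above the filter and *Spic* was below it. The filter is the median of all probe sets and not a call of detection. *Clec4f*, a galactose-binding lectin, averaged 9.40 on the log2 scale over the 20 mice. *Vsig4*, a receptor for complement-coated particles, averaged 9.5, and *Cd5l*, a secreted lipid-binding protein, 10.3. *Timd4*, a receptor for dying cells, averaged 6.63, close to the filter of 6.505. These levels are of different probe sets and have no order among themselves. In whole liver, fewer cells of a type and less RNA per cell cannot be told apart.

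**Figure D1:**
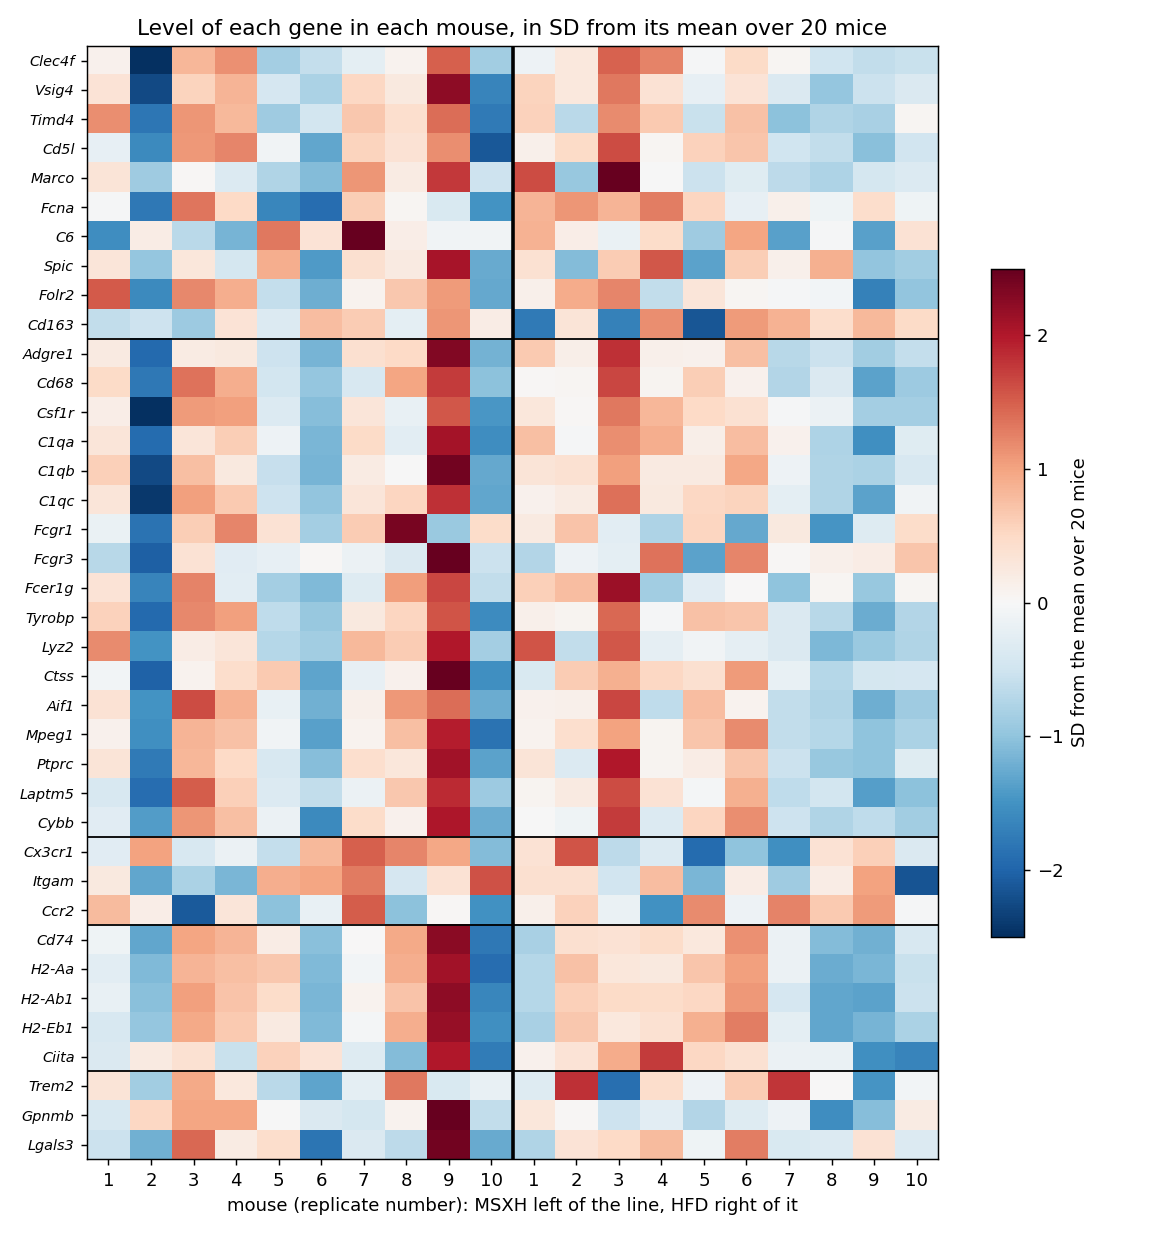
Level of the 38 genes with a probe set (rows, grouped by role as in the text) in each mouse (columns, MSXH mice left of the line and HFD mice right of it), as SD from the gene's mean over 20 mice. MSXH mouse 9 and HFD mouse 3 are high and MSXH mice 2, 6 and 10 low across most macrophage rows, and both diets hold high and low mice.

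The extract was not associated with a detectable change of any of these genes, though a change of 1 SD would mostly be missed. In simulated independent genes with the same SDs within groups, 2% of those shifted by 1 SD passed after adjustment. Of those shifted by 2 SD, 64% passed. With limma and Benjamini-Hochberg adjustment, 0 of the 35 members passed an adjusted p of 0.05 (smallest adjusted p = 0.9998), against 0.0% of all genes tested. At an unadjusted p under 0.05 there was 1 member, *Fcna*, or 2.86%, against 3.62% of all genes (425 of 11728). It was lower in MSXH, as were 1.74% of all genes, while 0 members were higher, against 1.88% of all genes. By a rank-sum test on each gene (Wilcoxon), 0 of all genes passed after adjustment and 399 (3.4%) before it. Of the 35 members, 16 had a g above 0 (45.7%), against 49.4% of all genes, and 19 a g below 0, against 50.6%. Their median g was -0.0328, against -0.00692 over all genes, and none of the 38 genes with a probe set had groups that did not overlap (0.0% of all genes). This direction rested on single mice: without MSXH mouse 2, 25 of the 35 had a g above 0, without MSXH mouse 9, 8 did, and without both, 16 did.

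The members' direction also moved with a measure of RNA quality. The 3' minus 5' signal of the actin control, which grows as RNA degrades, had a g of 0.491 (95% interval -0.398 to 1.38) between MSXH and HFD livers. Its means were 1.355005 in MSXH and 1.354978 in HFD livers, compressed like the other deposited values. With this signal as a covariate, chosen after seeing the data, 29 of the 35 members were higher in MSXH, against 48.6% of all genes. Beyond these values its part in the diet difference was not tested. With that covariate 0 members and 0 genes changed after adjustment, and *Fcna* and *Gpnmb* had an unadjusted p under 0.05, against 5.82% of all genes.

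**Figure D2:**
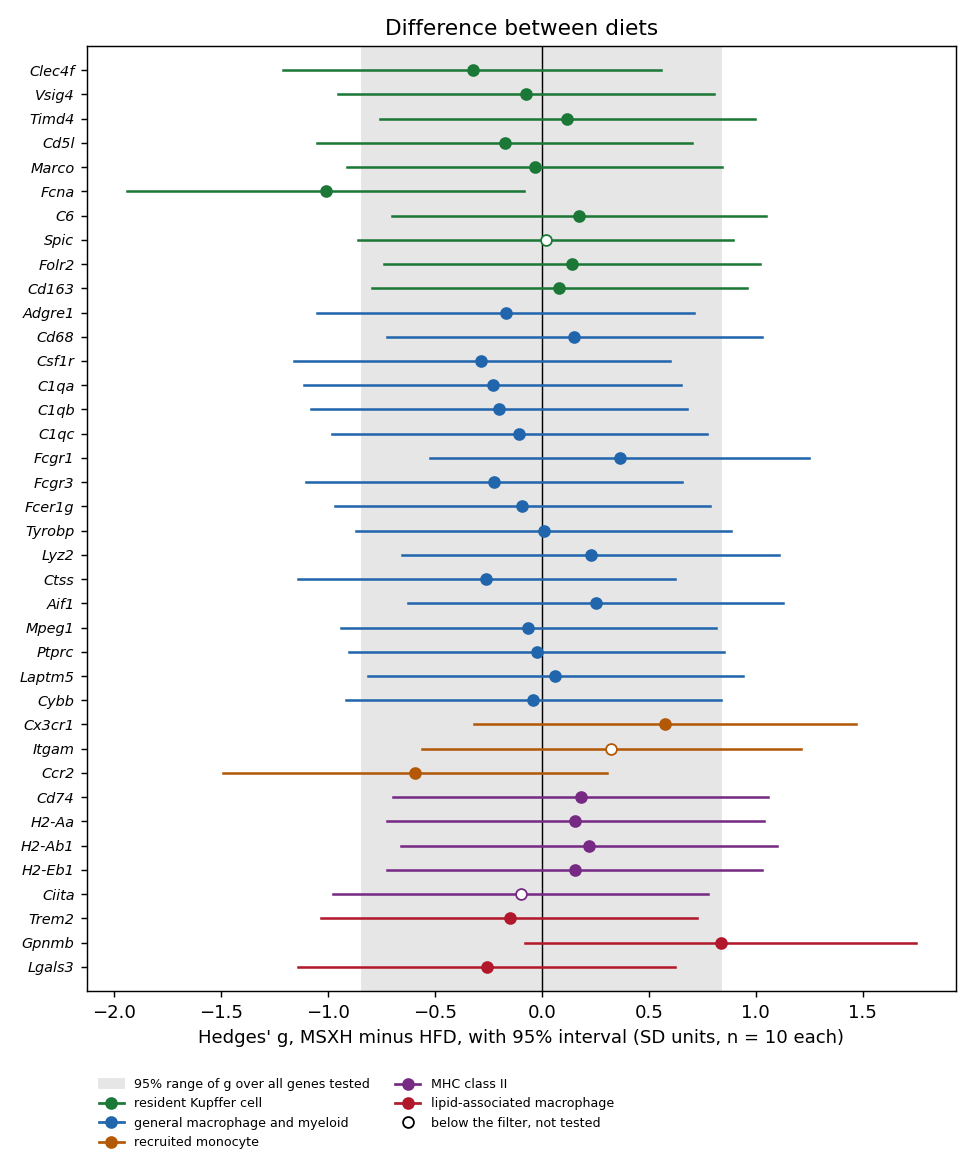
Hedges' g of MSXH minus HFD (horizontal axis, SD units) with its 95% interval for each gene, coloured by group, n = 10 mice each; open points were below the filter. The grey band is the 95% range of g over all genes tested (-0.839 to 0.839), and *Fcna* at -1.01 is the only tested member outside it.

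Among the 10 resident Kupffer cell markers, 9 were tested and 4 had a g above 0. The lowest and the highest g belonged to *Fcna* and *C6*. *Fcna*, mouse ficolin A, is a pattern-recognition lectin that starts the complement cascade. In MSXH mice its level ran from -1.9 to 1.33 SD with a median of -0.2 SD. In HFD mice it ran from -0.2 to 1.27 SD with a median of 0.49 SD. The groups overlapped, 3 of 10 MSXH mice exceeded the HFD median, and MSXH mice 2, 5, 6, 9 and 10 (-1.78, -1.63, -1.9, -0.39 and -1.5 SD) were lower than every HFD mouse. Its g was -1.01 (95% interval -1.94 to -0.0816), with an unadjusted limma p of 0.0268 and an adjusted p of 0.9998. Without single mice, g lay between -1.37 and -0.89 and the unadjusted limma p between 0.00528 and 0.054, above 0.05 without MSXH mouse 2, 5, 6 or 10. An exact rank-sum test gave an unadjusted p of 0.0892. The value depended on the scaling: g was -0.109 (unadjusted limma p = 0.797) when all arrays were forced to the same distribution (quantile normalization). When each array was shifted to the same median, g was -0.162 (unadjusted limma p = 0.704). The array medians spanned 0.000176 and had a g of -0.309, while the SD of *Fcna* was 3.37e-05. The shift itself thus enters the shifted g, which cannot show how stable the difference of *Fcna* is.

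*C6*, a component of the membrane attack complex, ran from -1.56 to 2.51 SD in MSXH mice (median 0.05 SD) and from -1.36 to 0.98 SD in HFD mice (median 0.07 SD). Its g was 0.176 (95% interval -0.702 to 1.05, adjusted limma p = 0.9998), and the high value was MSXH mouse 7. *Clec4f* ran from -2.82 to 1.5 SD in MSXH mice (median -0.08 SD) and from -0.61 to 1.47 SD in HFD mice (median 0.01 SD). The low end was MSXH mouse 2, and g was -0.323 with all mice, -0.0564 without that mouse and -0.53 without MSXH mouse 9. It was -0.0486 under quantile normalization, -0.212 with arrays shifted to the same median and -0.0794 with the actin covariate. The remaining resident markers tested, *Vsig4*, *Timd4*, *Cd5l*, *Marco*, *Folr2* (a folate receptor) and *Cd163* (a receptor for haemoglobin bound to haptoglobin), had g from -0.173 to 0.142. *Spic*, a transcription factor of macrophages that recycle iron, had a g of 0.0196 and was not tested.

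All 17 general macrophage and myeloid genes were tested, and 6 had a g above 0 (35.3%, median -0.0629). *Csf1r*, the receptor on which Kupffer cells depend, had the lowest g, -0.282 (95% interval -1.16 to 0.599). It ran from -2.56 to 1.56 SD in MSXH mice (median -0.01 SD) and from -0.84 to 1.32 SD in HFD mice (median 0.15 SD), so that MSXH mice held both ends. *Fcgr1*, a high-affinity receptor for antibody, had the highest g, 0.364 (95% interval -0.52 to 1.25). It ran from -1.85 to 2.38 SD in MSXH mice (median 0.42 SD) and from -1.47 to 0.71 SD in HFD mice (median -0.02 SD). The sign of that g turned when the *Fcgr1* probe set with the largest SD was used. For the C1q chains, which recognise immune complexes and start the classical complement pathway, g was -0.226 for *C1qa*, -0.198 for *C1qb* and -0.105 for *C1qc*.

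The g of the recruited monocyte markers had different signs. *Ccr2*, the receptor that draws monocytes from the blood, ran from -2.09 to 1.52 SD in MSXH mice (median -0.07 SD) and from -1.52 to 1.24 SD in HFD mice (median 0.35 SD). Its g was -0.591 (95% interval -1.49 to 0.304), and 2 of 10 MSXH mice exceeded the HFD median. That g was -0.139 under quantile normalization and 0.181 when each array was shifted to the same median. The SD of *Ccr2* was 1.35e-05, so the shift itself enters the shifted value. *Cx3cr1*, the fractalkine receptor, ran from -1.09 to 1.49 SD in MSXH mice (median 0.33 SD) and from -1.93 to 1.57 SD in HFD mice (median -0.35 SD). Its g was 0.578 (95% interval -0.316 to 1.47), and 7 of 10 MSXH mice exceeded the HFD median. That g was 0.219 under quantile normalization and became 0.346 after the arrays' medians were equalised. The SD of *Cx3cr1* was 3.41e-06, so here too the shift enters the shifted value. The other *Cx3cr1* probe set had a g of -0.0948 and r = -0.0273 with the one used. It averaged 5.88, below the filter of 6.505. *Itgam*, the integrin chain CD11b, was below the filter, with a g of 0.323. The diets overlapped for all 3 genes.

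The 4 tested class II genes all had a small g above 0, from 0.155 for *H2-Eb1* to 0.223 for *H2-Ab1*. *H2-Ab1*, the beta chain that pairs with *H2-Aa*, ran from -1.64 to 2.23 SD in MSXH mice (median 0.26 SD) and from -1.33 to 1.08 SD in HFD mice (median 0.01 SD). *H2-Eb1* ran from -1.54 to 2.17 SD in MSXH mice (median 0.08 SD) and from -1.3 to 1.27 SD in HFD mice (median 0.01 SD). MSXH mouse 9 was the highest and MSXH mouse 10 the lowest of all 20 for both. Their 95% intervals ran from -0.656 to 1.1 and from -0.723 to 1.03. Without MSXH mouse 9 the g of *H2-Ab1* was 0.00306 and those of *Cd74* (the invariant chain, which guides class II to endosomes), *H2-Aa* and *H2-Eb1* changed sign. For *H2-Ab1*, g was 0.436 without MSXH mouse 10, 0.77 (unadjusted limma p = 0.0895) with the actin covariate and 0.0876 with the probe set of the largest SD. *Ciita*, the transactivator, was below the filter, with a g of -0.0981.

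Of the lipid-associated macrophage genes, *Gpnmb*, a membrane glycoprotein of lipid-laden macrophages, had the highest g of all members. It ran from -0.61 to 3.36 SD in MSXH mice (median 0.04 SD) and from -1.55 to 0.28 SD in HFD mice (median -0.3 SD). MSXH mice 3, 4 and 9 (0.98, 0.98 and 3.36 SD) and MSXH mouse 2 (0.51 SD) lay above every HFD mouse. Its g was 0.837 (95% interval -0.0769 to 1.75), with an unadjusted limma p of 0.0625 and an adjusted p of 0.9998. With the actin covariate g was 1.29 (unadjusted limma p = 0.0077). Equalising the arrays' medians gave 0.526 (unadjusted limma p = 0.233), a value that the shift itself enters, since the SD of *Gpnmb* was 1.6e-05. A rank-sum test gave *Gpnmb* an unadjusted p of 0.143. The other *Gpnmb* probe set had a g of -0.211 and r = 0.316 with the one used. Both were low: the one used averaged 6.55, just above the filter of 6.505, and the other averaged 5.69. *Lgals3*, galectin-3, ran from -1.82 to 2.41 SD in MSXH mice (median -0.45 SD) and from -0.75 to 1.27 SD in HFD mice (median 0.13 SD), with a g of -0.257 (95% interval -1.14 to 0.623). *Trem2*, a lipid receptor of macrophages, had a g of -0.15.

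The larger pattern was not between diets but between mice. On the deposited scale, 23 of the 35 members were among the 10% of genes with the largest SD over the 20 mice (10.0% of all genes), and *H2-Aa* and *H2-Ab1* were among the top 1% (1.01% of all genes). The SD of *H2-Aa* was 717 times the median SD of all genes tested, that of *H2-Ab1* 332 times, that of *H2-Eb1* 209 times and that of *Cd74* 98.4 times. The median over the general macrophage genes was 29.9 times and over resident markers 13.7 times. The 2 tested recruited monocyte markers had a median of 0.571 times and the lipid-associated genes of 1.08 times. How the authors' processing compressed each gene is not known, so this ranks spread in the deposited values and not in RNA amount.

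**Figure D3:**
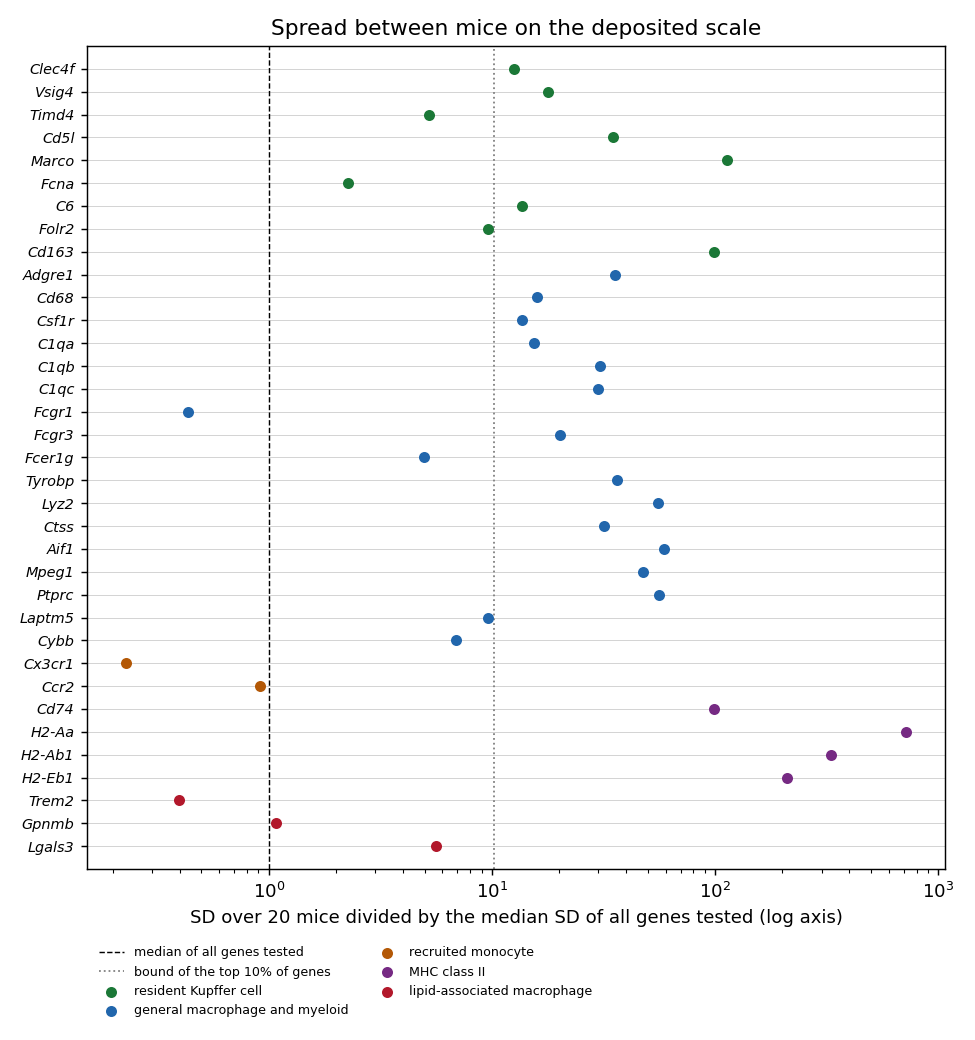
SD over 20 mice of each tested gene, divided by the median SD of all genes tested (horizontal log axis), coloured by group; the dashed line is that median and the dotted line the bound of the top 10% of genes. The 4 class II genes lie from 98.4 to 717 times the median, and *Cx3cr1*, *Fcgr1*, *Trem2* and *Ccr2* lie below it.

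In the values as deposited, most members varied together from mouse to mouse, and under quantile normalization the named pairs below did so much less. Over the 595 pairs of tested members the median of Pearson's r over the 20 mice was 0.639, against 0.012 over all 68767128 pairs of genes tested. An r of at least 0.7 was reached by 268 of the 595 pairs (45.0%), against 0.547% of all pairs. MSXH mouse 9 had the highest mean level of the general macrophage genes (1.81 SD) and of the class II genes (2.19 SD). HFD mouse 3 was the highest HFD mouse for the general macrophage genes (1.29 SD). MSXH mouse 2 was the lowest of all for the general macrophage genes (-1.88 SD) and MSXH mouse 10 for the class II genes (-1.72 SD). In HFD mice the lowest means were -0.92 SD for the general macrophage genes (mouse 9) and -1.23 SD for class II (mouse 8).

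**Figure D4:**
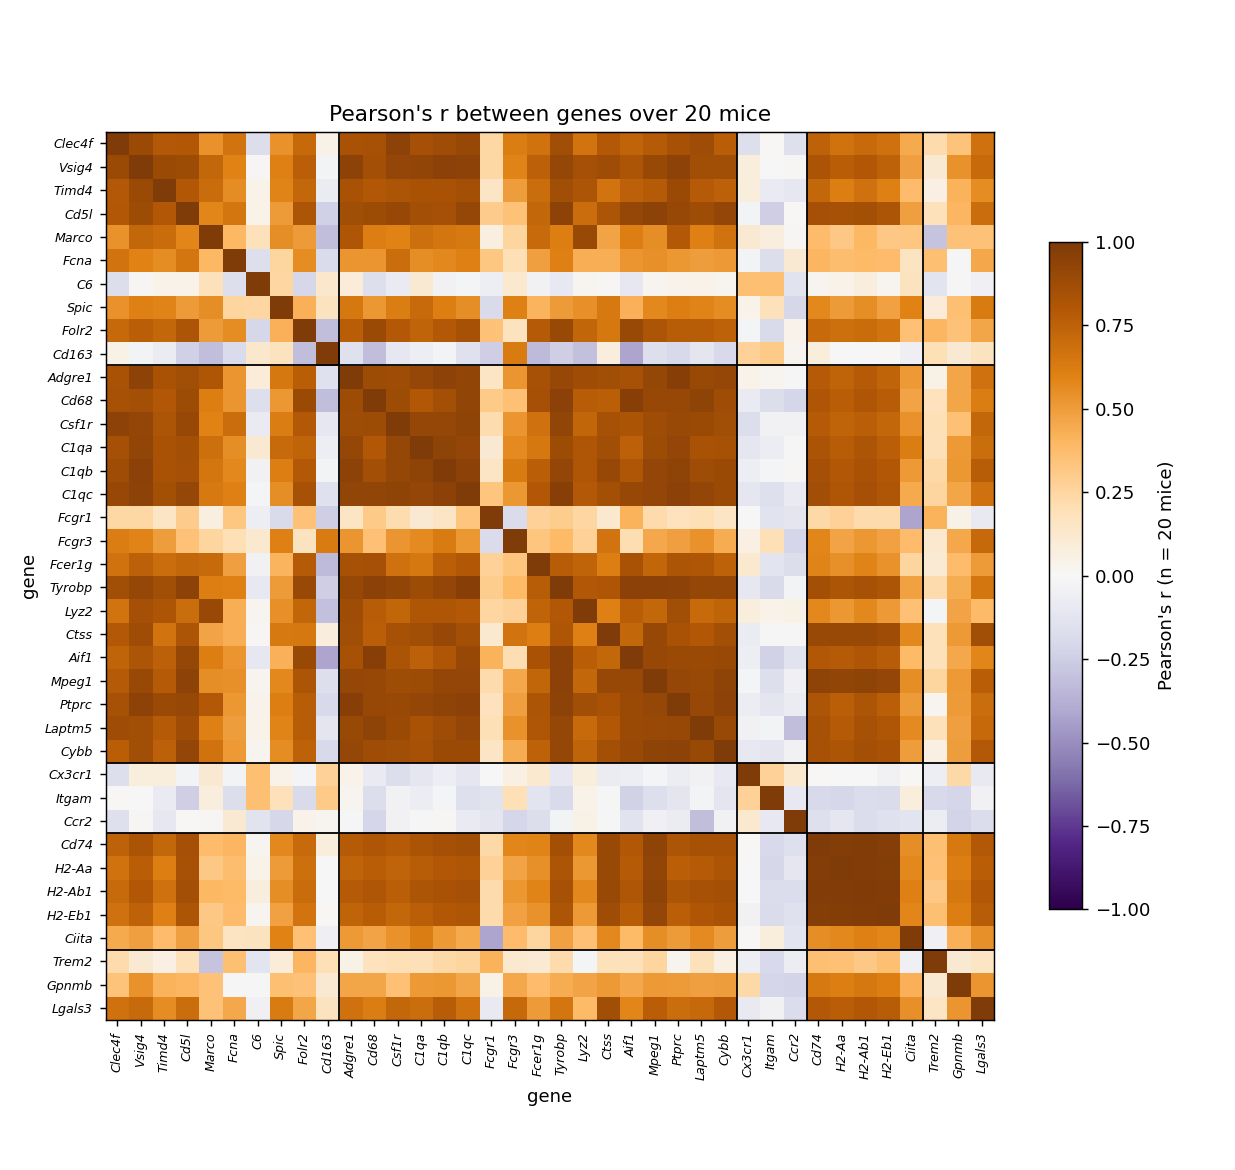
Pearson's r over 20 mice between each pair of the 38 genes (both axes, grouped by role in the order of the text; lines separate the groups). The resident, general macrophage and class II genes form a block of high r, and *C6*, *Cd163*, *Fcgr1*, *Cx3cr1*, *Itgam*, *Ccr2* and *Trem2* appear as pale rows within it.

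For 29 pairs named by a known partnership, r and Spearman's rho were tested by two-sided permutation over mice (100000 resamples, for which 1e-05 is the smallest p they can give) and adjusted over the 29. Of these, 21 passed an adjusted p of 0.05, and the smallest r that passed was 0.553, a value reached by 3.2% of all pairs of genes. The median r of the 29 was 0.8. Under quantile normalization it was 0.226 and 7 passed, among them the pairs of class II chains and *Cd74* (r from 0.974 to 0.981). The class II genes had the highest r of the 29 pairs. *H2-Aa* and *H2-Ab1*, whose proteins form a single molecule, had r = 0.987 and rho = 0.989 (permutation p = 1e-05, adjusted p = 2.42e-05), and r = 0.982 without the 2 mice farthest from the median. *Cd74* followed *H2-Ab1* at r = 0.986 (rho = 0.98) and *H2-Aa* at r = 0.978 (rho = 0.971). *H2-Eb1* followed *H2-Ab1* at r = 0.986 (rho = 0.989) and *H2-Aa* at r = 0.984 (rho = 0.985), so that the pair of genes whose promoters are printed above moved together in all 20 mice. These r shared the permutation p of 1e-05 and lay between 0.964 and 0.981 without the 2 mice farthest from the median.

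Values of r were lower for the transactivator. *Ciita* had r = 0.604 with *H2-Ab1* (rho = 0.513, permutation p = 0.00457, adjusted p = 0.00698) and r = 0.553 with *Cd74* (rho = 0.519, permutation p = 0.0119, adjusted p = 0.0165). Neither passed without the 2 mice farthest from the median (r = 0.354 and 0.251). When each array was shifted to the same median, r over all 20 mice was 0.173 and 0.149. The array medians spanned 0.000176 and the SD of *Ciita* was 1.21e-05. The shift is thus large beside the spread of *Ciita*, and those 2 values cannot test its co-variation. Without MSXH mice 2 and 9, r was 0.515 for *H2-Ab1* (adjusted permutation p = 0.0466) and 0.46 for *Cd74* (adjusted permutation p = 0.0752). The 3 probe sets of *Ciita*, all of low level, had r from -0.033 to 0.134 with each other. Those of *H2-Aa* (4 probe sets) had r from 0.935 to 0.992 and those of *H2-Ab1* (3 probe sets) from 0.929 to 0.981.

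All 3 pairs of C1q chains passed as well. *C1qb* and *C1qc* had r = 0.95 (rho = 0.896), *C1qa* and *C1qb* r = 0.933 (rho = 0.89) and *C1qa* and *C1qc* r = 0.919 (rho = 0.823), with permutation p = 1e-05 each for r. The 3 genes lie together on chromosome 4. Between C1q and class II genes the 12 pairs had a median r of 0.812 (0.759 to 0.863). HFD mouse 1 parted the 2 sets: its class II genes were at -0.82 to -0.72 SD, its C1q genes at 0.1 to 0.75 SD, and its *Marco* and *Lyz2* (lysozyme, an antibacterial enzyme of phagocytes) at 1.64 and 1.58 SD. Under quantile normalization *C1qa* had r = 0.0648 with *C1qb* and 0.00357 with *C1qc*, *C1qb* had r = 0.501 with *C1qc* (adjusted permutation p = 0.0968), and none of the 3 pairs passed.

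Some resident markers followed each other closely and others did not: of the 36 pairs among the 9 tested, 12 had an r of at least 0.7 and 27 an r above 0, with a median of 0.547 (-0.319 to 0.888). *Clec4f* and *Vsig4* had r = 0.888 (rho = 0.868), *Vsig4* and *Timd4* r = 0.887 (rho = 0.89) and *Vsig4* and *Cd5l* r = 0.882 (rho = 0.884), each with permutation p = 1e-05 for r. *Csf1r* and *C1qa* had r = 0.914 (rho = 0.914, permutation p = 1e-05), and the best partner of *Clec4f* among all members was *Csf1r* (r = 0.94). *Adgre1*, which encodes the F4/80 antigen, had r = 0.874 with *Csf1r* (rho = 0.794, permutation p = 2e-05) and 0.829 with *Clec4f* (rho = 0.773, permutation p = 3e-05). Under quantile normalization r was 0.226 for *Clec4f* and *Vsig4*, 0.206 for *Vsig4* and *Timd4*, 0.249 for *Vsig4* and *Cd5l*, 0.286 for *Csf1r* and *C1qa*, 0.0999 for *Adgre1* and *Csf1r*, 0.413 for *Adgre1* and *Clec4f* and 0.258 for *Marco* and *Cd5l*, and these no longer passed. *Clec4f* and *Timd4*, at r = 0.792, also lost the call there (0.418), and *Clec4f* and *Cd5l*, at r = 0.8, kept it (0.701). *Marco*, a scavenger receptor for bacteria, had r = 0.894 with *Lyz2*, its best partner, and 0.582 with *Cd5l* (rho = 0.591, permutation p = 0.00731, and r = 0.376 without the 2 mice farthest from the median). Its 2 probe sets had r = 0.829, and MSXH mouse 9 and HFD mice 3 and 1 were its highest.

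**Figure D5:**
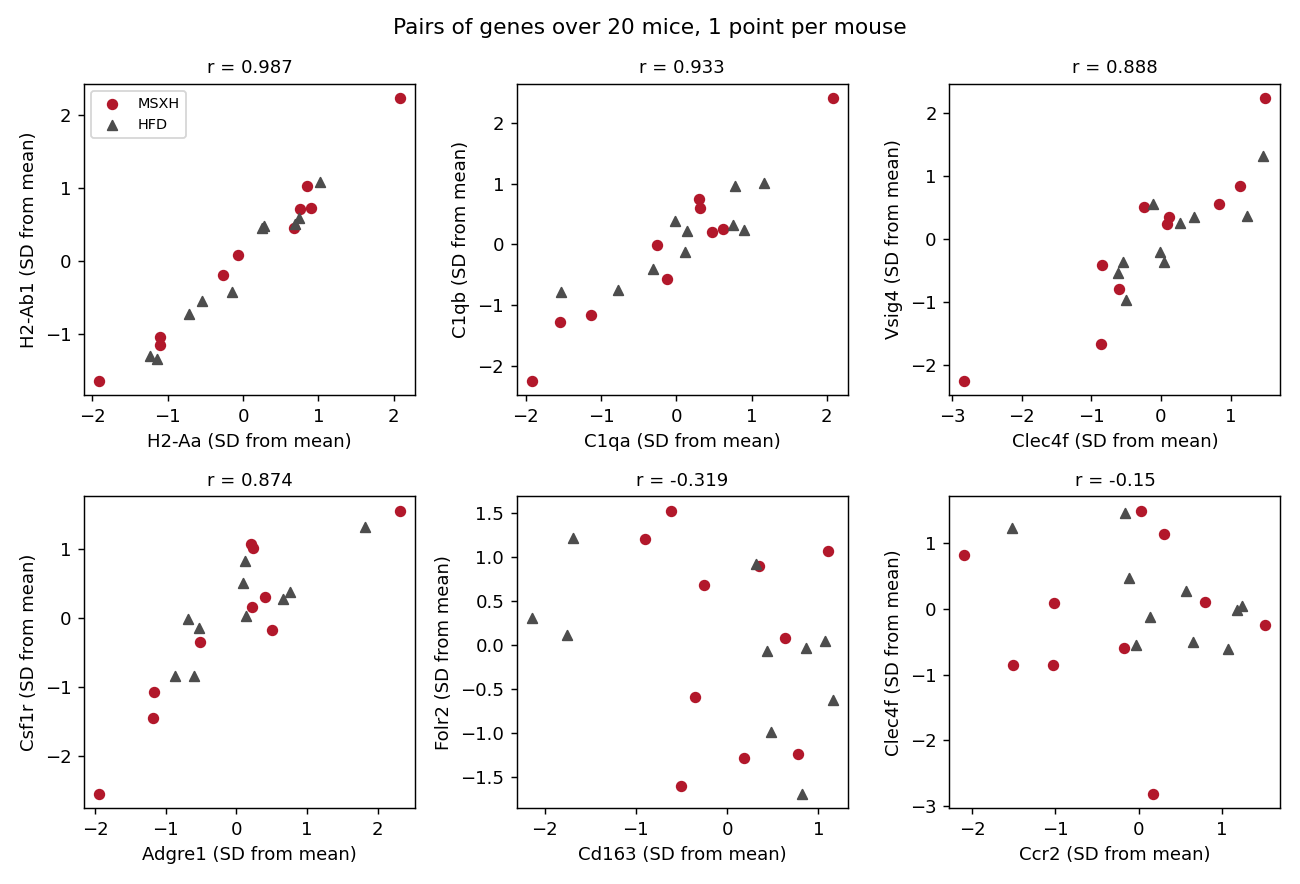
Levels of 6 pairs of genes in each mouse (both axes in SD from the gene's mean over 20 mice; MSXH mice as circles, HFD mice as triangles), with Pearson's r over 20 mice. The upper row (class II, C1q, resident Kupffer cell) and the *Adgre1* and *Csf1r* panel run along a line in both diets (r from 0.874 to 0.987), and the *Cd163* and *Folr2* (r = -0.319) and *Ccr2* and *Clec4f* (r = -0.15) panels do not.

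Receptors and their adaptors gave mixed values. *Fcer1g* and *Tyrobp*, membrane adaptors that pass on signals through ITAM motifs, had r = 0.775 (rho = 0.722, permutation p = 9e-05, adjusted p = 0.000154), though r was -0.11 under quantile normalization. *Fcgr3*, an antibody receptor that needs *Fcer1g*, had r = 0.334 with it (adjusted permutation p = 0.202). *Fcgr1* had r = 0.271 with *Fcer1g* (adjusted permutation p = 0.298) and *Trem2* r = 0.222 with its adaptor *Tyrobp* (adjusted permutation p = 0.397). The 2 probe sets of *Fcgr1* had r = 0.284 with each other and those of *Trem2* -0.0534. With the *Fcgr1* probe set of the largest SD, r with *Fcer1g* was 0.839 (adjusted permutation p = 2.42e-05).

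By the probe sets used, several members stood outside this block. The median r to the other members was 0.0154 for *C6*, -0.0898 for *Cd163*, -0.0209 for *Cx3cr1*, -0.119 for *Itgam*, -0.0686 for *Ccr2*, 0.185 for *Trem2* and 0.216 for *Fcgr1*. Except for *C6* and *Cd163*, their SDs ran from 1.57e-06 to 1.35e-05, below the median of 1.48e-05 over all genes tested. Other probe sets of *Fcgr1* (above) and *Ccr2* (below) gave higher r, so independence of these genes from the block is not shown. *Cd163* and *Folr2*, both receptors of resident macrophages, had r = -0.319 (rho = -0.371, adjusted permutation p = 0.216), and the closest member to *Cd163* was *Fcgr3* (r = 0.631). *Cd163* was lowest in HFD mice 5, 1 and 3 (-2.14, -1.76 and -1.69 SD), and HFD mouse 3 was the highest HFD mouse for the general macrophage genes. The recruited marker *Ccr2* had r = -0.15 with *Clec4f* and -0.177 with *H2-Ab1*, neither of which passed. Its 4 probe sets disagreed (r from -0.175 to 0.596). With the probe set of the largest SD, r was 0.493 with *Clec4f* (adjusted permutation p = 0.0337) and 0.648 with *H2-Ab1* (adjusted permutation p = 0.00322). That probe set averaged 6.11, below the filter of 6.505, and the one used averaged 6.77. *Trem2* and *Gpnmb*, both of lipid-associated macrophages, had r = 0.116, and *Ccr2* and *Itgam* r = -0.0967. When each array was shifted to the same median, those last 2 values were 0.962 and 0.972. The shift adds the same amount to every gene of an array, and the array medians spanned 0.000176. Over the 20 mice *Ccr2*, *Itgam*, *Trem2* and *Gpnmb* had SDs of 1.35e-05, 1.57e-06, 5.88e-06 and 1.6e-05. The shift thus enters these genes alike, and those 2 values cannot be read as co-variation of the genes themselves.

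The co-variation was seen within each diet. Among MSXH mice the median r over the 595 member pairs was 0.771, and among HFD mice 0.478; whether these differ was not tested. Within MSXH and within HFD mice the class II medians were 0.991 and 0.979 and the C1q medians 0.966 and 0.89. Without MSXH mice 2 and 9, left out after seeing the data, the medians were 0.979 for class II, 0.89 for C1q and 0.549 for all pairs, and 18 of the 29 named pairs passed.

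The measure of RNA quality used here, from the actin control alone, varied with the block. The 3' minus 5' actin signal had r from -0.73 (*C1qa*) to 0.282 (*Fcgr1*) with the members, with a median of -0.597, against 0.0243 over all genes tested. The r was below -0.4 for 26 of the 35 members. After its linear part was taken out of each gene, 18 of the 29 pairs passed, 17 of them among the 21 above. The median r was then 0.975 for class II, 0.871 for C1q, 0.745 for the general macrophage genes, 0.419 for resident markers and 0.54 for all member pairs. Between class II and C1q it was 0.674, with 4 of 12 pairs at 0.7 or more, against 12 of 12 before. *Marco* and *Cd5l*, *Lyz2* and *Ctss* (cathepsin S, which trims the invariant chain) and both *Ciita* pairs no longer passed. Its part in the co-variation beyond this was not tested.

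Markers of other liver cells were set against the members as a description. The median r to the members was -0.17 for 5 hepatocyte markers, -0.208 for 3 T cell markers, 0.251 for 4 dendritic cell markers, 0.177 for 7 markers of sinusoidal endothelium, 0.404 for 5 stellate cell markers and 0.0595 for 2 red blood cell markers. Lists with 1 gene above the filter gave -0.548 for B cells (*Ighm*), 0.385 for NK cells (*Klrk1*) and 0.405 for neutrophils (*Csf3r*). *Ighm* had an r above 0 with 3 of the 35 members. The endothelial markers all had a g above 0 (7 of 7, median 0.515), with 0 passing after adjustment. Their part in the diet values of the members was not tested.

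Genes outside the list that were most like the class II genes, by mean r to *H2-Aa*, *H2-Ab1*, *H2-Eb1* and *Cd74* over the 20 mice, were *Ifi30* (0.928), *H2-DMa* (0.927), *Plac8* (0.921), *Gbp3* (0.898) and *Col14a1* (0.895), with the member *Mpeg1*, a pore-forming protein of macrophages, at 0.927. *Ifi30* encodes a thiol reductase of endosomes that prepares antigens, and *H2-DMa* a chain that helps load peptides. For the C1q genes they were *Mndal* (0.932), *Ly86* (0.932), *Adgre4* (0.923), *Cd53* (0.921) and *Dock10* (0.911), and among members *Vsig4* (0.94) and *Ptprc* (0.933), the pan-leukocyte antigen CD45.

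Other genes of these pathways, grouped by role, gave 0 calls after adjustment. Those named here were picked for the smallest unadjusted limma p of each list. An unadjusted limma p under 0.05 was reached by 1 gene of class I presentation and class II loading. It was also reached by 1 lysosome and lipid-handling gene and by 0 in the other lists, against 3.62% of all genes. Of 15 tested genes of class I presentation and class II loading, 9 had a g above 0, and *H2-D1*, a class I heavy chain, had a g of 1.2 (95% interval 0.247 to 2.15, unadjusted limma p = 0.016). *Nlrc5* had a g of 0.76 (95% interval -0.148 to 1.67). Of 11 growth factors, chemokines and lineage factors, 6 had a g above 0, and *Csf1*, the ligand of *Csf1r*, had a g of -0.915 (95% interval -1.84 to 0.00647, unadjusted limma p = 0.0528). *Id1* went the other way, with a g of 0.712 (95% interval -0.191 to 1.62). Of 18 other Kupffer cell and scavenger genes 10 had a g above 0, with *Cfp* (properdin) at -0.356 and *Il18bp*, which binds interleukin 18, at 0.268. Of 16 lysosome and lipid-handling genes 12 had a g above 0, with the tetraspanin *Cd9* at 1.04 (95% interval 0.107 to 1.97, unadjusted limma p = 0.0231) and the lysosomal cholesterol carrier *Npc2* at 0.819 (95% interval -0.0936 to 1.73).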

How the data were processed

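Per the labels' protocols, the authors made biotin-labelled RNA copies from 200 ng of liver RNA with a 3' IVT kit. Such kits start from the poly(A) tail, so that signal comes mainly from transcript ends. The values of 45101 probe sets were used as the authors deposited them and taken as log2 levels, since they run from 5.2 to 14.96, above the natural log of the largest scanner value (11.09). For background, scaling and probe summary the method is not given in the sources. The low-fat group (10 kcal%) and the 0.02% extract group are not analysed here. Signal over background is unknown, and precision is limited by the 20 arrays.

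The 64 control probe sets were left out. Of the rest, 34945 name 1 gene, 932 several and 9160 none. Of the 38 members with a probe set, 38 gene numbers were found in RefSeq's gene table. Each of 18193 genes was represented by its probe set of highest mean, and 11728 passed the filter. MSXH was compared with HFD with limma 3.58.1 in R 4.3.3 and Benjamini-Hochberg adjustment over all genes. Co-variation was tested by permutation in Python 3.11.15 with scipy 1.17.1, and figures used matplotlib 3.10.9. The scripts were tested on simulated data. The members and lists were chosen with earlier results of these data known. Of members, values are given for any with an unadjusted p under 0.05 and for the extremes of each group, and *Clec4f* and single mice were added after seeing the values. The alternatives changed the array scaling, filter, probe set, variance model or test, added a replicate block, or left out each mouse.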

Additional observations from a re-analysis of the deposited data

Results flagged for a closer look

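In 3 of 76 sets of 10 mice (each of 38 genes in each diet) a single mouse stood apart, its gap to the next mouse divided by the range of the set being above Dixon's critical value at 95% confidence. Chance gives 5%, or 3.8 sets. For *Fcgr3* in MSXH mice the ratio was 0.495, from mouse 9 (2.72 SD) on the high side. For *Gpnmb* in MSXH mice it was 0.6, again from mouse 9 (3.36 SD) on the high side. For *Ccr2* in HFD mice it was 0.493, from mouse 4 (-1.52 SD) on the low side.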

How the results depend on the processing

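In every alternative run, 0 genes and 0 members changed after adjustment, also with each mouse left out in turn (0 to 0). The count of members higher in MSXH was 10 of 25 with a filter at the 75th percentile (fewer genes tested) and 29 of 35 with the actin covariate, and ran from 8 to 25 over the mice left out. The named pairs that passed numbered 7 under quantile normalization, where r reversed for *Cd74* and *Ciita* (-0.403), *Ciita* and *H2-Ab1* (-0.342) and *Fcer1g* and *Tyrobp* (-0.11); the cause was not tested. Genes at an unadjusted p under 0.05 numbered 425 of 11728, against 46 of 11728 after shifting medians and 683 of 11728 with the actin covariate. Runs with other numbers of genes gave 126 of 11212 after quantile normalization, 197 of 6941 under the stricter filter and 780 of 18193 unfiltered. Genes without any spread after quantile normalization were left out of that run. Over the mice left out, the count ran from 318 to 598 of 11728, and for members it was 0 to 2. Shifted medians turned the sign of g for 4 members (*Fcer1g*, *Cybb*, *Ccr2* and *Trem2*) and quantile normalization for 9. The array medians spanned 0.000176, against a median SD of 1.48e-05 over all genes tested. For genes of small SD the shift itself thus enters the shifted values. Mice of the same replicate number did not deviate together (r from -0.133 to 0.369, and 2 of 20 arrays best with their own number). A fit with that number as a replicate block called 0 genes and 0 members, gave 501 genes at the unadjusted level and left 16 members higher.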

Other observations

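Among all genes tested, those with the highest r to *Cd163* over the 20 mice were *Mphosph8* (0.813), *Ccl6* (0.798), *Acacb* (0.791) and *Fkbp5* (0.784). They were chosen after their values were seen, and the 4 genes had g from -0.142 to 0.241 between MSXH and HFD mice.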
